A study of Mus musculus with 16 samples.

Results

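The endothelial genes described here were 10 genes that mark the lining cells of blood vessels: Pecam1, Cdh5, Kdr, Flt1, Tek, Tie1, Eng, Plvap, Esam and Emcn. Their rows were taken by Ensembl mouse identifier from a table of 52636 genes, and each symbol matched 1 row. Pancreatic islets were isolated from male mice aged 12 weeks, whose strain the sample labels give as C57BL/6JRj and the study's methods as C57BL/6NRj. Islets from several mice were pooled, and each library came from 500 islets. The islets were left unexposed (control) or were exposed for 10 days to recombinant mouse IL-1β at 50 pg/ml, to sodium butyrate at 0.2 mM, or to both, and every condition, control included, was kept in RPMI 1640 medium with human serum. Each condition had 4 libraries, described by the study as 4 independent experiments, which gave 16 RNA-seq libraries of 18635943 to 25955943 counted reads. No freshly isolated islets are analysed here, so the values describe endothelial transcripts at the end of culture and how they differed with exposure, not what was lost during culture.

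Islets are densely supplied with fenestrated capillaries, and islet beta cells secrete VEGF-A, which signals to the endothelium through VEGF receptors. Endothelial cells are held together by VE-cadherin and related adhesion molecules and are kept quiescent by angiopoietin signalling through TIE receptors. Once islets are isolated, blood flow through these vessels stops, and islet endothelium is known to be hard to keep alive in culture. IL-1β is a cytokine that activates endothelium, and butyrate, a fatty acid made by gut bacteria, inhibits histone deacetylases.

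Endothelial genes are known to share binding sites for ETS and GATA family factors, so the promoters of members were searched for these motifs. Of the 10 members, 6 matched a RefSeq promoter of 300 bases (250 before to 50 after the transcription start, build GRCm38.p6), namely Kdr, Flt1, Tek, Tie1, Eng and Emcn. For ETS factors the 1 sequence AGGAAG was searched for, and other forms of ETS site were not. The promoters of the pair of VEGF receptors and the pair of TIE receptors are shown, since each pair holds a member with AGGAAG and a member without it. Capitals mark AGGAAG on either strand, where the opposite strand reads CTTCCT, and each sequence runs 5′ to 3′ on its gene's strand.
Flt1, chr5:147725962-147726261, minus strand: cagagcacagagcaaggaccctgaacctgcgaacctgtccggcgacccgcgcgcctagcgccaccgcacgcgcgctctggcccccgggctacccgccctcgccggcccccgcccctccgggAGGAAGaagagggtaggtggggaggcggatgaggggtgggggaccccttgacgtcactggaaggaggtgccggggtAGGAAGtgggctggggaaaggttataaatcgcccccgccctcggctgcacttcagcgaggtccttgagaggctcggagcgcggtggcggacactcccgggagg
Kdr, chr5:75978406-75978705, minus strand: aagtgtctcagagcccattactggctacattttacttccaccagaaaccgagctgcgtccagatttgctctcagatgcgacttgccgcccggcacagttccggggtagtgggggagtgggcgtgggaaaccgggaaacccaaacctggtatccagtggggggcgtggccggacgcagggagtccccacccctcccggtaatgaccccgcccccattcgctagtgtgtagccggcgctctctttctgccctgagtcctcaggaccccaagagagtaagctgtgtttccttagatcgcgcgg
Tie1, chr4:118489800-118490099, minus strand: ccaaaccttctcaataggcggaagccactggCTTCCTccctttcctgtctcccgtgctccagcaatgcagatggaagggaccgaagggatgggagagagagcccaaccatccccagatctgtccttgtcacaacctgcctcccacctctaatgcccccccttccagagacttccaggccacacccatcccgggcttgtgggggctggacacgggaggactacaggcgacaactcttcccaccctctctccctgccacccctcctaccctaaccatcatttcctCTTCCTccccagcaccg
Tek, chr4:94739039-94739338, plus strand: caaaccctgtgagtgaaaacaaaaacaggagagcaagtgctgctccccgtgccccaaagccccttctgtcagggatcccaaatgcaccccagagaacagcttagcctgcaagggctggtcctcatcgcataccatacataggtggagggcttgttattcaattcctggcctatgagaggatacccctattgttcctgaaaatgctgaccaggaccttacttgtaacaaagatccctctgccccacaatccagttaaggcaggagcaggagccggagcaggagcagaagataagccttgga
The ETS motif AGGAAG was present in 4 of the 6 promoters (Flt1, Tie1, Eng and Emcn, with 2 matches each), and 35.1% of 27025 mouse promoters of the same length held it. The GATA motif AGATAA was found on either strand in 1 of the 6, Tek, against 11.4% of all promoters. The ETS and GATA motifs shared 0 bases in these promoters. Such matches describe letters in a window and not bound sites.

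All 10 endothelial genes were detected, most of them at very low levels. Levels are given as CPM, read counts divided by library size after scaling by the trimmed mean of M-values (TMM) and, for comparisons between genes, divided by the kilobases of annotated exon. Over the 16 libraries Esam averaged 3.09 CPM per kb, against a median of 2.61 CPM per kb over the 18587 genes tested, and 53.0% of tested genes lay below it. Pecam1 followed at 0.476, Plvap at 0.295, Flt1 at 0.177, Eng at 0.141 and Cdh5 at 0.126 CPM per kb. Tek at 0.0874, Tie1 at 0.0424, Kdr at 0.0385 and Emcn at 0.0371 CPM per kb were the lowest. Cdh5, the gene of VE-cadherin and the most specific endothelial marker of the set, lay above only 5.22% of tested genes and Kdr above 0.113%. In control islets Esam stood apart at 2.80 ± 0.120 CPM per kb (SD, n = 4). The libraries of Pecam1 and Plvap overlapped, as did those of Flt1 and Eng, Eng and Cdh5, Cdh5 and Tek, and the libraries of Tek, Tie1, Kdr and Emcn overlapped one another, so the order within these neighbours was not separated beyond the spread.

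**Figure D1:**
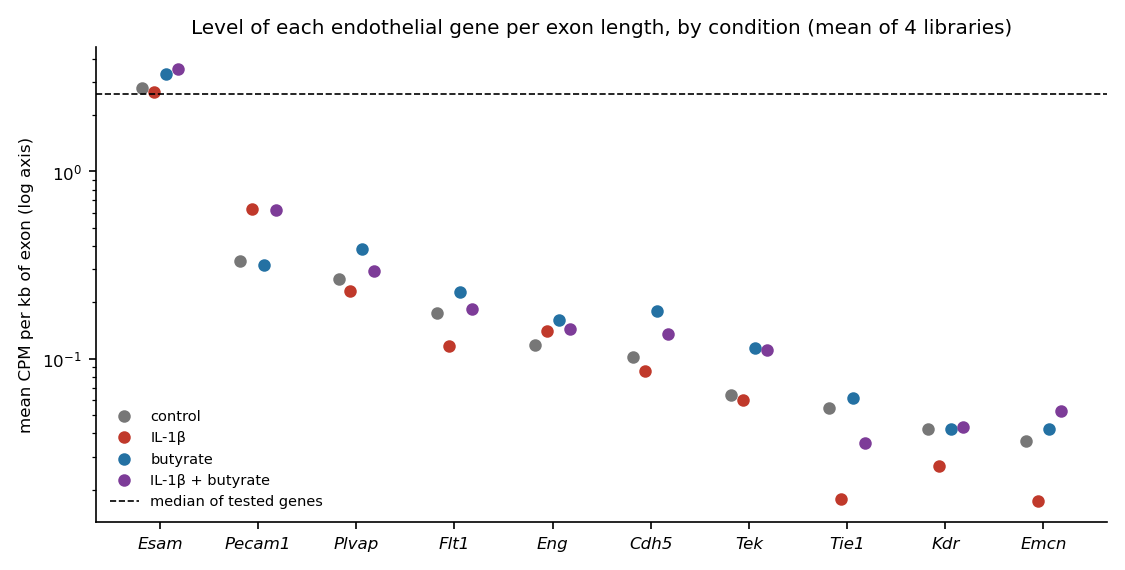
Mean CPM per kb of exon (log axis) of each endothelial gene in the 4 conditions (4 libraries each), ordered by level, with the median of all tested genes as a dashed line. Esam lay near the median of 2.61 CPM per kb, and the other 9 genes lay below 1 CPM per kb in every condition.

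In bulk islet RNA, fewer endothelial cells and less RNA per cell cannot be told apart. The counts behind these levels were small, so counting error was large for most members. Esam had 107 to 256 reads per library, Pecam1 36 to 115 and Flt1 16 to 81. The medians of the rest were 13 reads for Plvap, 12 for Eng, 11 for Cdh5, 9 for Tek, 7 for Kdr, 4.5 for Tie1 and 4 for Emcn. Tie1 had no read in 1 library and Emcn in 2 libraries, where a floor of 3 reads applies. These 2 genes failed the filter on low counts, and 8 of the 10 members were tested. IL-1β replicate 1 stood apart within its condition in the level of Flt1 and Esam, and the differences of the 8 tested members that rest on IL-1β libraries are therefore also given without it.

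Of the endothelial genes, Pecam1 rose with IL-1β, with and without butyrate. No other member was called in the fit reported, which did not pair libraries by replicate number. With the replicate number as a block, Flt1 was also called for IL-1β against control, and Flt1 and Esam for butyrate added to IL-1β. A gene was called when edgeR's quasi-likelihood test gave a false discovery rate (FDR) under 0.01 after Benjamini-Hochberg adjustment over all tested genes, the threshold the study used. IL-1β against control called 1 of 8 tested members, in a comparison that called 17.8% of all tested genes. IL-1β with butyrate against butyrate alone called the same member, Pecam1, while 14.8% of genes were called. Butyrate against control called 0 of 8 members and 19.9% of genes, and IL-1β with butyrate against IL-1β alone called 0 of 8 members and 19.5% of genes. With edgeR at an unadjusted p under 0.05 the count was 4 of 8 for butyrate against control (Tek, Flt1, Cdh5 and Esam), where 38.6% of all genes passed, and 3 of 8 for IL-1β with butyrate against IL-1β (Tek, Flt1 and Esam), where 39.9% did. DESeq2 called 0 and 1 member in these comparisons, the 1 being Esam. At the same unadjusted edgeR threshold it was 2 of 8 for IL-1β against control, where 35.9% of all genes passed, and 1 of 8 for IL-1β added to butyrate, where 31.2% did. The shares of members called at FDR under 0.01 were thus below those of all genes. At the unadjusted threshold only butyrate against control gave a share above that of all genes. Below, groups of libraries that do not overlap are reported for some members. The share of all tested genes that separate in this way was not counted, so separation alone does not set a member apart.

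**Figure D2:**
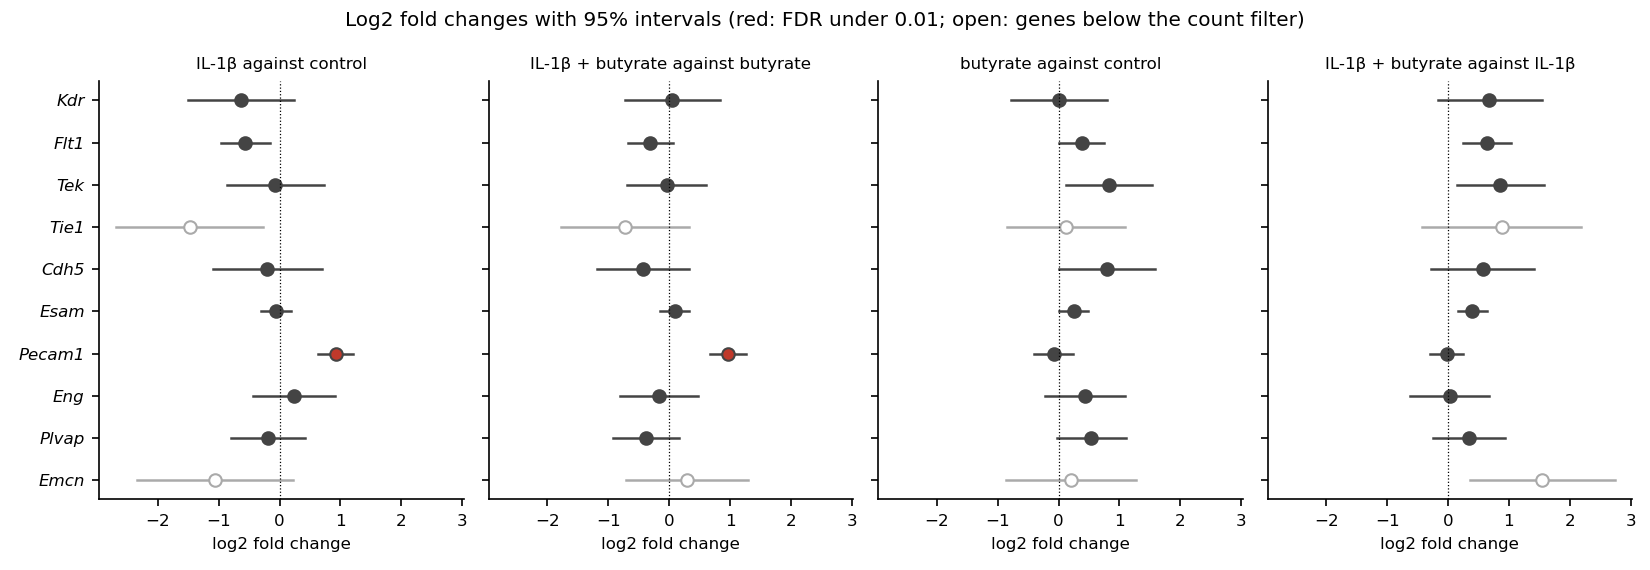
Log2 fold change (points) and 95% interval (lines) of each endothelial gene in the 4 comparisons. Red points were called at FDR under 0.01, and open grey points are Tie1 and Emcn, which were below the count filter and were fitted without it. Pecam1 is the only called gene, at 0.92 and 0.97 in the comparisons with IL-1β added.

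Pecam1 encodes CD31, an adhesion molecule of endothelial junctions that is also carried by leukocytes and platelets. The gene (ENSMUSG00000020717) lies on GRCm38 chr11:106654217-106750628, minus strand, and shares no annotated exon bases with another gene. It reached 1.96, 1.67, 2.44 and 2.27 CPM in control replicates 1 to 4 and 3.46, 3.65, 4.41 and 4.15 CPM in the IL-1β replicates. With butyrate it reached 1.81, 2.04, 2.14 and 1.89 CPM, and with IL-1β and butyrate 3.82, 3.95, 3.55 and 4.19 CPM. All 8 libraries with IL-1β lay above all 8 without it. IL-1β raised Pecam1 by 0.92 on the log2 scale (SE 0.14, 95% interval 0.63 to 1.21, edgeR FDR 1.2e-05), a fold of 1.89. In the presence of butyrate the log2 fold change was 0.97 (SE 0.14, 0.68 to 1.27, edgeR FDR 7.1e-06). Butyrate left no detectable difference in Pecam1, with a log2 fold change of −0.08 against control (interval −0.40 to 0.24, edgeR FDR 0.77) and of −0.02 when added to IL-1β (−0.29 to 0.25, edgeR FDR 0.93). The interaction, which asks whether the IL-1β effect differed with butyrate, was 0.06 (−0.36 to 0.47, edgeR FDR 0.99). Both calls held in 23 of 23 alternative fits. Without IL-1β replicate 1 Pecam1 was at 0.98 for IL-1β against control and at −0.09 for butyrate added to IL-1β.

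Macrophage markers rose with IL-1β in the same libraries as Pecam1. Of 10 macrophage markers, 9 rose and 1, C1qa, fell in IL-1β against control, where 11.2% and 6.59% of all tested genes did, with a median log2 fold change of 2.22 against −0.03 over all genes. Adgre1 (F4/80) went from 1.79 ± 0.628 to 9.74 ± 2.76 CPM and Csf1r, the receptor of macrophage colony-stimulating factor, from 3.19 ± 0.657 to 14.5 ± 3.86 CPM (SD, n = 4). The summed level of the 10 markers was 131 to 143 CPM in control, 187 to 235 with IL-1β, 86.6 to 107 with butyrate and 102 to 140 with IL-1β and butyrate, and none was at 0 in any condition. C1qa made up most of this sum, and the sum without it, a choice made after its values were seen, was 18.9 to 31.2, 95.6 to 168, 15.1 to 25.0 and 43.9 to 94.6 CPM in the same order. Adding butyrate to IL-1β lowered 5 of 10 macrophage markers (2 without IL-1β replicate 4, and 3 without IL-1β replicate 2 or without replicate 1 or 2 of the condition with both) and raised 0 (median −0.68), where 11.1% of all tested genes were lowered, with Adgre1 at −1.27 (SE 0.28, edgeR FDR 0.0031) and Csf1r at −0.50 (SE 0.26, edgeR FDR 0.17), whereas Pecam1 was at −0.02. Of the platelet markers 3 of 5 were tested. For IL-1β against control and IL-1β added to butyrate, edgeR and DESeq2 called 0, with 0 and 1 at an unadjusted p under 0.05. These comparisons called 17.8% and 14.8% of all tested genes. Butyrate raised 1 of the 3 against control and 1 when added to IL-1β, where 8.53% and 8.41% of all tested genes were raised. The latter call was absent with DESeq2 and without IL-1β replicate 1. The summed platelet level was 6.35 to 8.89 CPM in control, 7.93 to 10.1 with IL-1β, 7.06 to 9.29 with butyrate and 9.97 to 10.8 with both. The part of these cells in the Pecam1 values was not tested.

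**Figure D3:**
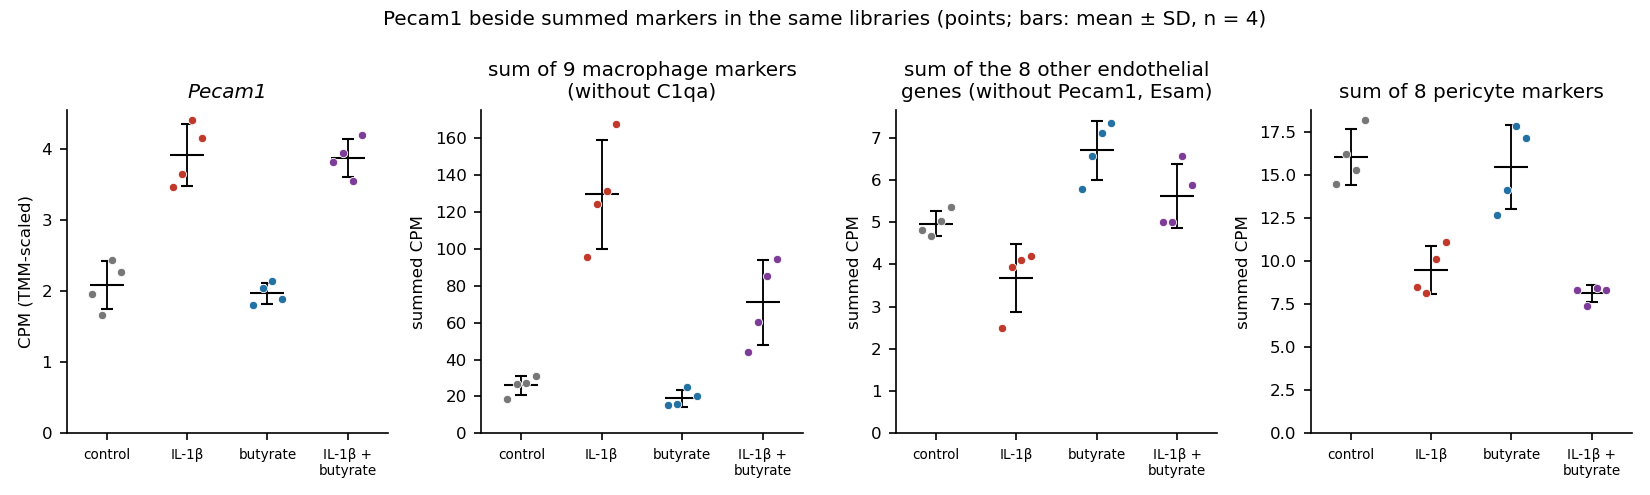
Pecam1 (CPM), the sum of 9 macrophage markers without C1qa, the sum of the 8 endothelial genes other than Pecam1 and Esam, and the sum of 8 pericyte markers (summed CPM) in each library, with mean ± SD (n = 4). Pecam1 and the macrophage sum are higher with IL-1β, the macrophage sum is lower again when butyrate is added, and the sum of the 8 endothelial genes is lowest with IL-1β, at 2.48 to 4.19 CPM against 4.67 to 5.35 CPM in control. Flt1, not called in the fit reported, averaged 2.38 of the 4.96 CPM of that sum in control and 1.58 of 3.68 CPM with IL-1β. Eng, also in that sum, averaged higher with IL-1β than in control. Pecam1 and Esam were left out of that sum after their values were seen. The sum of all 10 was 11.5 to 16.9 CPM with IL-1β and 13.97 to 15.84 CPM in control.

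The VEGF receptors were both lower with IL-1β in their mean and neither was called in the fit reported. Flt1 encodes VEGFR1, a receptor that binds VEGF-A, VEGF-B and placental growth factor and also acts as a decoy (ENSMUSG00000029648, chr5:147561604-147726011, minus strand). It reached 2.38, 2.13, 2.39 and 2.61 CPM in control replicates 1 to 4 and 0.827, 1.85, 1.76 and 1.88 CPM in the IL-1β replicates, so these groups did not overlap. With butyrate it reached 2.36, 3.20, 3.29 and 3.48 CPM, and with IL-1β and butyrate 2.07, 2.59, 2.89 and 2.46 CPM, all 4 above the IL-1β libraries. The log2 fold change was −0.57 for IL-1β against control (SE 0.20, interval −0.97 to −0.16, edgeR FDR 0.032) and 0.64 for IL-1β with butyrate against IL-1β (SE 0.20, 0.24 to 1.04, edgeR FDR 0.013), and these values share the IL-1β libraries. Without IL-1β replicate 1 they were −0.36 (edgeR FDR 0.15) and 0.43 (edgeR FDR 0.068). Flt1 passed the threshold in 1 of 23 alternative fits for the former comparison, the replicate block. It passed in 2 of 23 for the latter, the replicate block and the fit without the filter on low counts. Butyrate against control gave 0.38 (SE 0.18, 0.01 to 0.75, edgeR FDR 0.12). The Flt1 interaction was 0.26 (−0.28 to 0.81, edgeR FDR 0.94), and 0.05 without IL-1β replicate 1.

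Kdr encodes VEGFR2, the main signalling receptor of VEGF-A (ENSMUSG00000062960, chr5:75932827-75978458, minus strand). It had 4, 11, 11 and 8 reads in control, 4, 3, 7 and 7 with IL-1β, 10, 9, 6 and 7 with butyrate and 7, 11, 13 and 5 with both. The groups overlapped in every comparison. The log2 fold change was −0.64 for IL-1β against control (interval −1.50 to 0.23, edgeR FDR 0.29) and 0.68 for IL-1β with butyrate against IL-1β (−0.17 to 1.54, edgeR FDR 0.23), and −0.57 and 0.61 without IL-1β replicate 1. Both intervals include 0 and are wide at these read counts, so neither a change nor its absence was shown.

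Tek and Tie1 encode the TIE receptors, TEK (TIE2) being the receptor of the angiopoietins and TIE1 its partner. Tek (ENSMUSG00000006386, chr4:94739289-94874976, plus strand) reached 0.420, 0.25, 0.287 and 0.257 CPM in control and 0.452, 0.489, 0.470 and 0.731 CPM with butyrate. These groups did not overlap, and the lowest butyrate library exceeded the highest control library by less than the range within either group. The log2 fold change was 0.83 for butyrate against control (SE 0.35, 0.12 to 1.54, edgeR FDR 0.074) and 0.86 for IL-1β with butyrate against IL-1β (SE 0.35, 0.14 to 1.58, edgeR FDR 0.067), neither called. The value for butyrate against control includes butyrate replicate 4, at 0.731 CPM, which stood apart within its condition. With any 1 library left out that value lay between 0.63 and 1.02. The IL-1β libraries lay at 0.207 to 0.341 CPM and those with IL-1β and butyrate at 0.339 to 0.744 CPM, so those groups overlapped. IL-1β against control gave −0.07 (−0.87 to 0.73, edgeR FDR 0.93). Without IL-1β replicate 1 Tek was at −0.02 for IL-1β and at 0.80 for butyrate added to it.

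Tie1 (ENSMUSG00000033191, chr4:118471191-118490061, minus strand) had 8, 6, 4 and 6 reads in control and 1, 1, 2 and 4 with IL-1β. With butyrate it had 8, 5, 8 and 4 reads and with both 4, 7, 0 and 5. On the CPM scale the IL-1β libraries, at 0.0487 to 0.144, lay below all control libraries, at 0.191 to 0.373. Fitted without the filter on low counts, Tie1 differed by −1.48 in log2 for IL-1β against control (SE 0.62, −2.69 to −0.27, edgeR FDR 0.12) and was not called.

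The junction genes Cdh5 and Esam were not called with IL-1β. Cdh5 (ENSMUSG00000031871, chr8:104101625-104144511, plus strand) had 10, 17, 5 and 7 reads in control, 2, 8, 8 and 15 with IL-1β, 15, 11, 16 and 22 with butyrate and 11, 7, 15 and 18 with both. Its groups overlapped throughout. The mean was 0.429 ± 0.210 CPM in control, 0.362 ± 0.185 with IL-1β, 0.756 ± 0.195 with butyrate and 0.567 ± 0.248 with both (SD, n = 4). The largest of its log2 fold changes was 0.79 for butyrate against control (SE 0.39, 0.00 to 1.59, edgeR FDR 0.13), and IL-1β against control gave −0.20 (−1.09 to 0.69, edgeR FDR 0.78), which turned to 0.09 without IL-1β replicate 1. Butyrate added to IL-1β gave 0.57 (−0.28 to 1.42, edgeR FDR 0.33), and 0.27 without that library.

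Esam encodes an immunoglobulin-family adhesion molecule of endothelial tight junctions, also found on platelets (ENSMUSG00000001946, chr9:37528078-37538319, plus strand). It held 51.9% of the reads of the 10 genes. Its level of 3.09 CPM per kb lay far above those of Pecam1, at 0.476, and Cdh5, at 0.126. Which islet cells carried the Esam reads was not tested. It reached 8.40, 7.63, 7.88 and 8.22 CPM in control, 5.53, 8.08, 8.40 and 8.55 with IL-1β, 10.2, 8.79, 10.6 and 8.69 with butyrate and 10.4, 7.85, 11.1 and 11.3 with both. All butyrate libraries lay above all control libraries, a log2 difference of 0.25 (SE 0.12, 0.00 to 0.49, edgeR FDR 0.13). IL-1β with butyrate exceeded IL-1β by 0.40 (SE 0.12, 0.16 to 0.64, edgeR FDR 0.012), just short of the threshold, and 3 of the 4 libraries with both lay above every IL-1β library. This value passed the threshold in 5 of 23 alternative fits, and without IL-1β replicate 1 it was 0.26 (edgeR FDR 0.069). IL-1β against control gave −0.06 (−0.31 to 0.19, edgeR FDR 0.76), and 0.07 without IL-1β replicate 1.

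The remaining members, Eng, Plvap and Emcn, were low and not called. Eng encodes endoglin, a co-receptor for TGF-β and BMP ligands (ENSMUSG00000026814, chr2:32646595-32682669, plus strand), and 61 of its 4048 exon bases overlap Fpgs on the opposite strand, where the strand setting of the count is not given in the sources used here. It averaged 0.480 ± 0.178 CPM in control, 0.570 ± 0.0486 with IL-1β, 0.653 ± 0.177 with butyrate and 0.581 ± 0.167 with both (SD, n = 4), and its 4 log2 fold changes lay between −0.17 and 0.43. Without IL-1β replicate 1 Eng was at 0.25 for IL-1β and 0.02 for butyrate added to it. Plvap encodes the protein of the diaphragms that span endothelial fenestrae (ENSMUSG00000034845, chr8:71497765-71511752, minus strand). It reached 0.607, 0.417, 0.669 and 0.428 CPM in control and 0.804, 0.7995, 0.679 and 0.774 CPM with butyrate. These groups did not overlap, and their log2 difference was 0.54 (SE 0.27, −0.02 to 1.10, edgeR FDR 0.15). With IL-1β Plvap lay at 0.415 to 0.487 CPM and with both at 0.424 to 0.745 CPM, and without IL-1β replicate 1 its log2 differences were −0.18 for IL-1β and 0.34 for butyrate added to it.

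Emcn encodes endomucin, a sialomucin of capillary and venous endothelium (ENSMUSG00000054690, chr3:137341067-137432185, plus strand). It had 1, 3, 3 and 11 reads in control, 0, 2, 4 and 2 with IL-1β, 0, 10, 4 and 6 with butyrate and 6, 6, 8 and 6 with both. The libraries with both lay above all IL-1β libraries on the CPM scale, and without the filter on low counts the log2 fold change was 1.55 (SE 0.61, 0.36 to 2.75, edgeR FDR 0.076). The control and butyrate libraries each held both the low and the high end of the Emcn range.

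**Figure D4:**
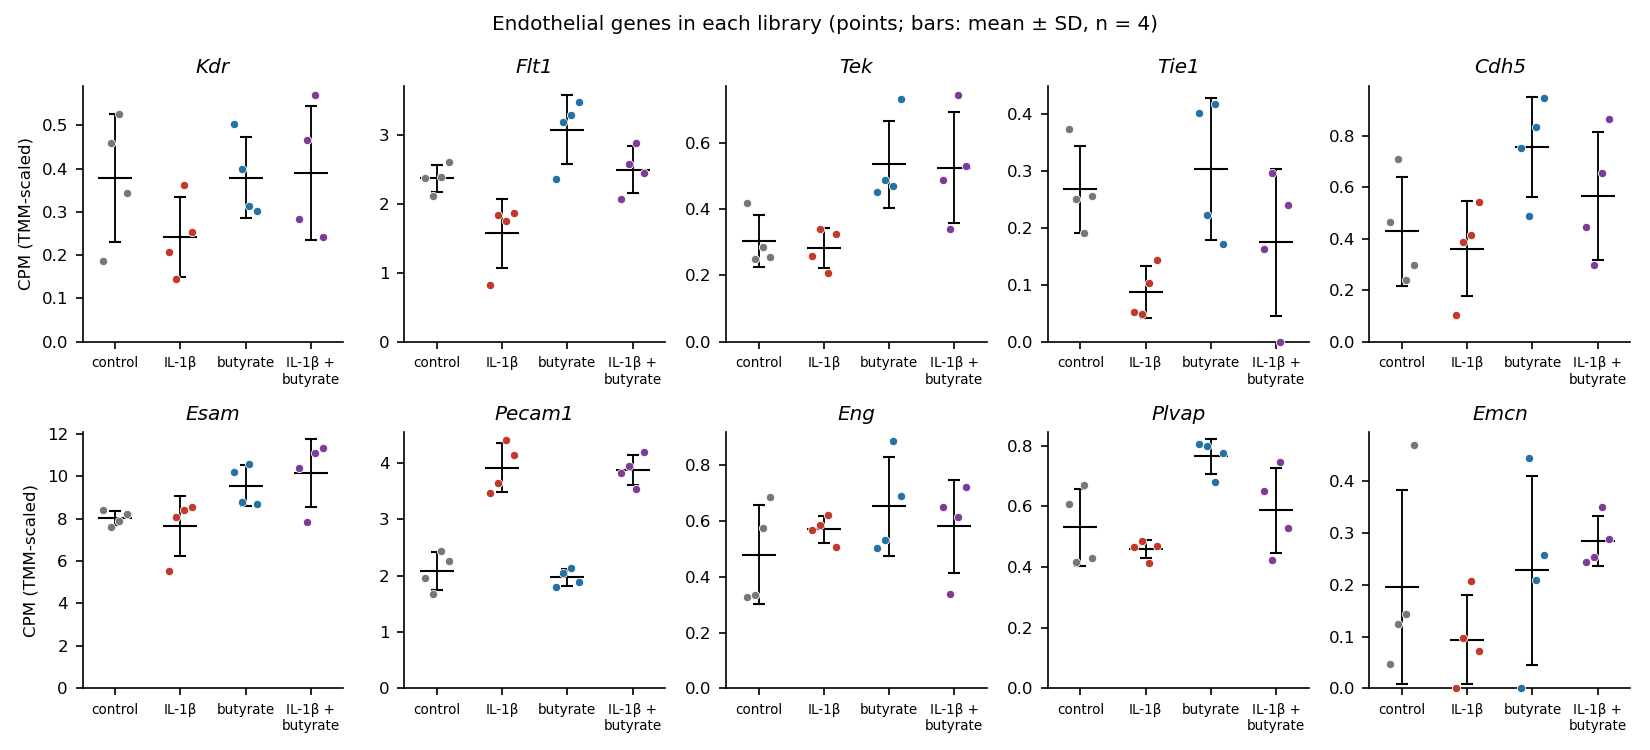
CPM of each endothelial gene in each library (points) with mean ± SD (bars, n = 4) for the 4 conditions, each panel on its own axis from 0. Pecam1 separates the libraries with IL-1β from the rest, the IL-1β libraries of Flt1 and Tie1 lie below all control libraries, and Tek, Plvap and Esam have butyrate libraries above the control libraries. Of these genes only Pecam1 was called in the fit reported. The share of all tested genes whose groups separate in this way was not counted.

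Across the set, the direction of the differences leaned upward with butyrate, without calls in the fit reported. Over the 8 tested members the median log2 fold change was 0.41 for butyrate against control with 6 of 8 positive, where all genes had a median of 0.01 and 51.2% positive. For IL-1β with butyrate against IL-1β the median was 0.48 with 7 of 8 positive, against 0.01 and 52.0% over all genes, and without IL-1β replicate 1 it was 0.30. For IL-1β against control it was −0.13 with 2 of 8 positive, Pecam1 and Eng, against −0.03 and 45.1%, but without IL-1β replicate 1 it was 0.03 with 4 of 8 positive, so this 1 library set its sign. With other libraries left out it lay between −0.21 (without control replicate 4) and −0.08 (without control replicate 1 or 3). For IL-1β with butyrate against butyrate it was −0.11 with 3 of 8 positive, against −0.01 and 48.1%, and between −0.23 (without IL-1β with butyrate replicate 3) and −0.01 (without replicate 2 of that condition) with a library left out. Fitted without the filter, all 10 members gave 8, 9, 2 and 4 positive values in the same order, with medians of 0.29, 0.59, −0.18 and −0.08. With other scalings the median over the 8 tested members was 0.38 to 0.46 for butyrate and 0.48 to 0.53 for butyrate added to IL-1β, where upper-quartile scaling put 59.6% and 59.9% of all genes above 0. The interaction called 0 of 8 members by edgeR and 0 by DESeq2, with 0 at an unadjusted p under 0.05, and called 0.0968% of all genes by edgeR. The summed level of the 10 genes was 13.97 to 15.84 CPM in control, 11.5 to 16.9 with IL-1β, 17.4 to 19.8 with butyrate and 16.8 to 21.4 with both, so every library with butyrate exceeded every control library. Esam and Pecam1 hold most of these reads. Pecam1 rose with IL-1β and not with butyrate, and the sum was also taken without it, a choice made after its values were seen. That sum was 12.3 to 13.6 CPM in control, 8.01 to 12.7 with IL-1β, 15.4 to 17.7 with butyrate and 12.9 to 17.7 with both. The butyrate libraries then still exceeded every control library, but those with both overlapped control.

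Of a further 28 endothelial genes, 14 passed the filter on low counts. IL-1β against control raised 3 and lowered 0, butyrate against control raised 2 and lowered 0, butyrate added to IL-1β raised 2 and lowered 1, and IL-1β added to butyrate raised 3 and lowered 0. These 3, 2, 3 and 3 calls of 14 stand beside 17.8%, 19.9%, 19.5% and 14.8% of all tested genes. Egfl7, which encodes a matrix protein secreted by endothelium and hosts the microRNA miR-126, rose in every comparison. It averaged 1.05 ± 0.295 CPM in control, 1.90 ± 0.491 with IL-1β, 2.89 ± 0.228 with butyrate and 5.46 ± 0.398 with both (SD, n = 4). Its log2 fold changes were 0.88 for IL-1β (SE 0.21, edgeR FDR 0.0018), 1.47 for butyrate (SE 0.20, edgeR FDR 1.7e-06), 1.5 for butyrate added to IL-1β (SE 0.16, edgeR FDR 8.1e-08) and 0.91 for IL-1β added to butyrate (SE 0.15, edgeR FDR 5.1e-05). The control and IL-1β groups of Egfl7 overlapped, the first of these calls was lost in 3 of 23 alternative fits, and 401 of its 3581 exon bases are also annotated to other genes on either strand. Rasip1, a RAS-interacting protein needed for vessel lumens, rose with butyrate by 0.47 (SE 0.12, edgeR FDR 0.0032) and with butyrate added to IL-1β by 0.43 (SE 0.12, edgeR FDR 0.0081, called in 13 of 23 alternative fits), and 1374 of its 3202 exon bases are also annotated to other genes on either strand.

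Icam2 and S1pr1, which endothelium shares with leukocytes, rose with IL-1β as Pecam1 did. Icam2, an adhesion molecule, averaged 0.234 ± 0.0763 CPM in control, 1.10 ± 0.143 with IL-1β, 0.202 ± 0.112 with butyrate and 0.625 ± 0.225 with both, with log2 fold changes of 2.19 for IL-1β (SE 0.34, edgeR FDR 1.5e-05) and 1.62 for IL-1β added to butyrate (SE 0.39, edgeR FDR 0.0026). S1pr1, a sphingosine-1-phosphate receptor, averaged 0.336 ± 0.0802, 1.28 ± 0.504, 0.0958 ± 0.0577 and 0.542 ± 0.164 CPM in the same order. It rose by 1.95 with IL-1β (SE 0.34, edgeR FDR 6.3e-05) and with IL-1β added to butyrate (edgeR FDR 6.0e-04), where the butyrate libraries held 1 to 3 reads each, 8 in all against 49, a ratio of 5.66 with a 95% exact counting interval of 2.66 to 13.8. It fell by 1.28 on the log2 scale when butyrate was added to IL-1β (edgeR FDR 0.0025). Cldn5, the tight junction protein claudin-5, had 0 to 6 reads per library and was not tested. Vwf, von Willebrand factor, was at 2.35 ± 0.0776 CPM in control and 2.76 ± 0.783 with IL-1β, with log2 fold changes from −0.17 to 0.24, none called.

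The ligands of the VEGF and TIE receptors were measured in the same libraries, and 8 of 11 genes of these pathways were tested. Of these, IL-1β against control raised 1 and lowered 2, butyrate against control raised 1 and lowered 1, butyrate added to IL-1β raised 2 and lowered 2, and IL-1β added to butyrate raised 1 and lowered 2, beside 17.8%, 19.9%, 19.5% and 14.8% of all tested genes called in the same order. The 4 calls for butyrate added to IL-1β fell to 1 or 2 when any 1 of the 8 libraries of that comparison was left out, and without IL-1β replicate 1 Vegfa and Vegfd were no longer called. Vegfa, the main VEGF ligand, was abundant at 109.8 CPM per kb in control and 134.6 CPM per kb with butyrate. It averaged 471 ± 15.1 CPM in control, 440 ± 21.3 with IL-1β, 577 ± 8.74 with butyrate and 498 ± 26.6 with both (SD, n = 4). In log2 terms it rose with butyrate by 0.29 (SE 0.05, edgeR FDR 1.9e-05) and with butyrate added to IL-1β by 0.18 (SE 0.05, edgeR FDR 0.0039, called in 17 of 23 alternative fits), and it fell by 0.21 on the log2 scale with IL-1β added to butyrate (edgeR FDR 0.0011). Vegfb, a ligand of Flt1, fell by 0.28 with IL-1β on the log2 scale (edgeR FDR 3.4e-04) and rose by 0.20 when butyrate was added to it (edgeR FDR 0.0063). Vegfc, a ligand of the lymphatic receptor, fell by 1.04 with IL-1β (edgeR FDR 1.4e-05) and by 1.49 with butyrate (edgeR FDR 1.8e-07) on the log2 scale.

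Nrp1, a co-receptor for VEGF and semaphorins that macrophages and neurons also carry, rose from 1.70 ± 0.162 to 5.00 ± 0.686 CPM with IL-1β (log2 fold change 1.56, SE 0.17, edgeR FDR 2.9e-08) and fell by 0.56 on the log2 scale when butyrate was added (edgeR FDR 0.0052). Vegfd fell by 1.2 on that scale in the same comparison (edgeR FDR 0.0070). Angpt2, an antagonist ligand of TEK, averaged 3.02 ± 0.447 CPM in control, 2.08 ± 0.288 with IL-1β, 3.76 ± 0.309 with butyrate and 1.93 ± 0.247 with both. It fell by 0.96 on the log2 scale with IL-1β added to butyrate (edgeR FDR 1.8e-05), and IL-1β against control gave −0.53 (SE 0.15, edgeR FDR 0.010, not called, but called in 5 of 23 alternative fits). Angpt1, the agonist ligand, had 0 to 4 reads per library and was not tested.

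Among 5 tested of 6 Notch pathway genes, IL-1β raised Dll4 and Jag1 and lowered Notch1. The calls were 3 of 5 for IL-1β, 2 for butyrate, 1 for butyrate added to IL-1β and 2 for IL-1β added to butyrate. They stand beside 17.8%, 19.9%, 19.5% and 14.8% of all tested genes. Dll4, a Notch ligand of arterial and tip cells, went from 7.32 ± 0.472 to 10.5 ± 0.365 CPM (log2 fold change 0.52, SE 0.09, edgeR FDR 8.8e-05). Jag1, another Notch ligand, went from 5.29 ± 0.495 to 11.9 ± 0.865 CPM (1.17, SE 0.10, edgeR FDR 3.4e-10), and butyrate added to IL-1β lowered it by 0.40 on the log2 scale (edgeR FDR 0.0016). Notch1 fell by 0.41 on the log2 scale with IL-1β (edgeR FDR 1.8e-04) and by 0.29 with butyrate (edgeR FDR 0.0048). Hey1, a Notch target, rose with butyrate by 1.62 (SE 0.41, edgeR FDR 0.0034) from 1 to 10 reads in control to 11 to 18 reads. Other genes are annotated on 214 of 3852 exon bases of Dll4 and 1389 of 14232 of Notch1, and all of these genes are also expressed outside endothelium.

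Of 5 genes of endothelial activation 3 were tested, and Icam1, an adhesion molecule that cytokines induce in many cell types, was the only one called. It had 7 to 12 reads per library in control, 388 to 665 with IL-1β, 6 to 25 with butyrate and 485 to 646 with both, which is 5.62 in log2 for IL-1β (SE 0.20, edgeR FDR 2.3e-15) and of 5.19 for IL-1β added to butyrate (SE 0.18, edgeR FDR 2.2e-15). Butyrate added to IL-1β left Icam1 at 0.24 (SE 0.11, edgeR FDR 0.10), and an antisense gene shares 511 of its 4360 exon bases. Vcam1 and Selp averaged lower with IL-1β. Vcam1 was at 2.36 ± 0.556 CPM in control and 1.69 ± 0.591 with IL-1β, and Selp at 0.481 ± 0.211 and 0.373 ± 0.146 CPM. The median of the 3 tested genes was −0.36 for IL-1β, with 1 of 3 positive. The 1 call in each comparison with IL-1β added stands beside 17.8% and 14.8% of all tested genes. Of the 3 lymphatic markers, all tested, Lyve1, a hyaluronan receptor also found on resident macrophages, rose with butyrate from 9.65 ± 1.23 to 15.6 ± 2.47 CPM (0.69, SE 0.10, edgeR FDR 9.2e-06) and fell by 0.57 on the log2 scale with IL-1β added to butyrate (edgeR FDR 1.0e-04). Lyve1 was the 1 of 3 called in each of these comparisons, which called 19.9% and 14.8% of all tested genes. Among the genes named from these 5 lists, a call was lost in some alternative fits for Icam2 with IL-1β added to butyrate, which was called in 19 of 22. Vegfa was called in 22 of 23 in that comparison. With butyrate added to IL-1β, S1pr1 was called in 21 of 23, Nrp1 in 19 of 23, Vegfd in 16 of 23 and Vegfb in 14 of 23. With butyrate against control, Rasip1 was called in 20 of 23, Hey1 in 18 of 22 and Notch1 in 16 of 23.

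Of 8 markers of pericytes, the contractile cells around capillaries, 7 were tested, and IL-1β lowered 5 and raised 0, where 6.59% of all tested genes were lowered, with a median log2 fold change of −0.80. The count lowered was 3 with library size only and 4 with DESeq2. It was 2 without IL-1β replicate 1 or 2 or without control replicate 3 or 4, and 3 without control replicate 2. Pdgfrb, the PDGF receptor of pericytes, went from 1.32 ± 0.386 to 0.422 ± 0.227 CPM (log2 fold change −1.57, SE 0.35, edgeR FDR 0.0010). The summed pericyte level was 14.5 to 18.2 CPM in control, 8.18 to 11.1 with IL-1β, 12.7 to 17.9 with butyrate and 7.43 to 8.45 with both. Butyrate added to IL-1β raised 0 and lowered 1 of the 7, where 8.41% and 11.1% of all tested genes were raised and lowered. Fibroblast markers, 6 of 6 tested, gave 0 calls with IL-1β by edgeR and by DESeq2, with 1 at an unadjusted p under 0.05. That comparison called 17.8% of all tested genes by edgeR. The summed fibroblast level was 6.16 to 11.4 CPM in control and 4.24 to 12.0 with IL-1β, with Col1a1 at 2.58 ± 0.860 and 2.91 ± 1.18 CPM. IL-1β replicate 1, which was low in Flt1 and Esam, was the IL-1β library lowest in the fibroblast sum, at 4.24 CPM against 10.3 to 12.0, and in the macrophage sum without C1qa, at 95.6 against 124 to 168 CPM. Replicate 1 was also lowest in that macrophage sum in the other 3 conditions, at 18.9 CPM in control, 15.1 with butyrate and 43.9 with both, and in the fibroblast sum in control (6.16 against 9.51 to 11.4 CPM) and with both (5.40 against 6.88 to 19.3 CPM), but not with butyrate alone. The part of these cells in the Flt1 and Esam values was not tested. Of 7 beta cell markers IL-1β lowered 6 and raised 0, where 6.59% and 11.2% of all tested genes were lowered and raised. Ins2, the main insulin transcript, averaged 145100 ± 7863 CPM in control and 88050 ± 10810 CPM with IL-1β (log2 fold change −0.72, SE 0.08, edgeR FDR 2.3e-07).

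The genes whose levels over the 16 libraries were most like the mean profile of the tested members were Kirrel2, Abcd4, Eno3, 5031434O11Rik and Slc25a23. Likeness was the root mean square difference of centred log2 CPM, which was 0.097 for Kirrel2 and 0.116 for Slc25a23 among 12690 candidate genes whose median was 0.296. By the same measure Esam lay at 0.107, Plvap at 0.227, Tek at 0.272, Flt1 at 0.303, Eng at 0.312, Kdr at 0.403, Cdh5 at 0.463 and Pecam1 at 0.549, so 5 of 8 members lay farther from their own mean than the median candidate gene. The candidates had an average log2 CPM of at least 1, a level that Plvap, Tek, Eng, Kdr and Cdh5 did not reach. These low members carry larger counting error in this measure, and Pecam1 differed from the mean profile by its rise with IL-1β.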

How the data were processed

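RNA from 16 pools of mouse islets was made into single-end libraries (NEBNext Ultra II) and sequenced on a HiSeq instrument. Per the submitters' processing notes the authors used bcl2fastq 2.19.1, STAR 2.5.3a, FastQC 0.11.7 and MultiQC 1.7 with mm10 (GRCm38.p5). The values are whole-number counts per gene as the authors deposited them, not normalised. The counting options, annotation release and strand setting are not given in the sources used here. The table held 0 columns of other samples. Of 52636 rows, 52489 identifiers matched GENCODE M21 (GRCm38), which gave symbols, positions and exon lengths, and 10560 had no count.

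Groups came from the sample labels. Counts were tested with edgeR 4.0.16 (quasi-likelihood, robust) in R 4.3.3, with filterByExpr (18587 genes), TMM scaling and all 16 libraries in 1 fit, and p-values were adjusted over all tested genes by the Benjamini-Hochberg method. An SE is the log2 fold change divided by the square root of F. Alternatives were DESeq2 1.42.0, other scalings, no filter, a replicate block, only the compared conditions, and each library left out. The script was tested on simulated counts. Replicates of a condition differed by a chi-square of 1.72 to 13.5 per gene, so none was a duplicate. The 95% intervals come from the edgeR fit and include the spread between libraries, except for a counting interval named as such, which like the floor of 3 reads covers counting error only.

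The members and lists were chosen with earlier results of these data known. All 10 members are named. From the other endothelial, VEGF and angiopoietin, Notch, activation and lymphatic lists, up to 6 genes a list called in at least 1 comparison are named, largest log2 fold change first, with Vegfa, Angpt1, Angpt2, Cldn5 and Vwf always. From the marker lists Ins2, Adgre1, Csf1r, Pdgfrb and Col1a1 are named. C1qa, Vcam1 and Selp are named after their values were seen. The like genes are the 5 closest with an average log2 CPM of at least 1. Promoters are from RefSeq.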

Additional observations from a re-analysis of the deposited data

Results flagged for a closer look

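A library stood apart within its condition for 3 of the 40 groups of 4 libraries (10 endothelial genes in 4 conditions), by Dixon's ratio of the gap to the range against its 95% critical value. Chance flags about 1 in 20 such groups, which makes 2 of 40. Flt1 in IL-1β replicate 1 was at 0.827 CPM (16 reads), below 1.76 to 1.88 CPM in the other IL-1β libraries (ratio 0.891). Esam in the same library was at 5.53 CPM (107 reads), below 8.08 to 8.55 CPM (ratio 0.844). Tek in butyrate replicate 4 was at 0.731 CPM (17 reads), above 0.452 to 0.489 CPM (ratio 0.869).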

How the results depend on the processing

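The 23 alternatives gave 891 log2 fold changes of tested members, of which 843 kept their direction and side of the threshold, 8 passed the threshold only under an alternative, 0 lost it and 40 changed sign. The sign changes concerned 13 of 40 results, none larger than 0.23 in size in the fit reported. Pecam1 was called in 23 of 23 alternatives in both comparisons of IL-1β, and DESeq2 called it too. With IL-1β and butyrate against IL-1β, the count of members called (0 in the report) was 1 with DESeq2, 2 without the filter, 1 with upper-quartile scaling and 0 to 1 when a library was left out, the 1 coming without IL-1β with butyrate replicate 2. The interaction, 18 genes in the report, gave 52 with DESeq2, 95 without the filter and 11 to 25 with a library left out. Tie1 and Emcn could be fitted only without the filter. Upper-quartile scaling turned Pecam1 for butyrate added to IL-1β to 0.027 and Kdr for butyrate to 0.045. Library size alone turned Esam for IL-1β to 0.004 and Tek for IL-1β added to butyrate to 0.051, and DESeq2's size factors in edgeR turned Kdr for butyrate to 0.001. With a library left out, these log2 fold changes crossed 0. For IL-1β they spanned −0.49 to 0.16 for Cdh5, −0.12 to 0.07 for Esam and −0.16 to 0.12 for Tek. For butyrate added to IL-1β they spanned −0.10 to 0.21 for Eng and −0.089 to 0.02 for Pecam1. For IL-1β added to butyrate they spanned −0.28 to 0.021 for Eng, −0.18 to 0.21 for Kdr and −0.26 to 0.15 for Tek. For butyrate they spanned −0.22 to 0.18 for Kdr and −0.17 to 0.003 for Pecam1. For the interaction they spanned −0.59 to 0.06 for Cdh5, −0.024 to 0.15 for Pecam1 and −0.20 to 0.22 for Tek. The cause of these changes was not tested.

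Conditions share replicate numbers, but the labels do not say that a number marks a shared batch. Same-numbered libraries deviated together with correlations of 0.0535 to 0.397, over 0.1 in 10 of 16 cases, and 28 of 32 matches were best with the own number. With the replicate block 2 members were called for IL-1β (Pecam1 and Flt1) and 2 for IL-1β with butyrate against IL-1β (Flt1 and Esam), the interaction called 132 genes, Kdr for butyrate turned to 0.014, and no other call of a member changed. The block put the pericyte markers lowered with IL-1β at 6 (5 in the report).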
